A study of Mus musculus with 12 samples.

Results

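Type 2 conventional dendritic cells (cDC2) grown from transferred common lymphoid progenitors (CLP-cDC2) were compared with cDC2 grown from transferred common dendritic cell progenitors (CDP-cDC2) by RNA-seq of cells taken from mouse spleen. The comparison used the 6 libraries whose labels name these groups, 3 of CLP-cDC2 and 3 of CDP-cDC2, out of 12 libraries in the series, and it covered every gene of the table. The libraries were chosen by their labels alone and by no measured value. In both groups the progenitors were CLPs or CDPs of wild-type (WT) CD45.2+ mice placed in the bone marrow of B6.SJL mice, whose own cells carry CD45.1. All recipients received lipopolysaccharide (LPS), the bacterial outer membrane component that activates Tlr4, at 5 mg/kg by the intraperitoneal route, and the progeny were isolated 4 days later. The labels give WT C57BL/6J mice of 7 to 8 weeks of age. The other 6 libraries were tdTomato+ cDC2 (L-cDC2, n = 3) and tdTomato- cDC2 (M-cDC2, n = 3) of Il7r-Cre;Rosa26-lsl-tdTomato mice, also 4 days after LPS. In these mice Cre made from the Il7r gene, active in lymphoid progenitors, leaves a lasting red label in the progeny, so that a cell is labelled by its history of Il7r activity and not by its level at the time. The stated purpose was to learn how closely CLP-derived cDC2 resemble L-cDC2. The labels give neither the markers of the sort, nor any conditioning of the hosts, nor whether animals were pooled, and all groups used here carried the LPS treatment.

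The CLP of the bone marrow gives rise mainly to B, T, NK and innate lymphoid cells and, to a smaller extent, to dendritic cells. The CDP lies downstream of myeloid progenitors and is committed to dendritic cells. The cDC2 made by either route are Sirpa+ antigen-presenting cells of the spleen that depend on Flt3 signalling, take up antigen and show it to CD4 T cells on MHC class II. On activation, dendritic cells raise Ccr7 and a maturation programme, move to T cell zones and release cytokines such as interleukin-1.

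The 3 CLP-cDC2 libraries held 33960731 to 45623857 assigned reads and the 3 CDP-cDC2 libraries held 36547370 to 56086702, as recovered from the steps of the FPKM values (fragments per kilobase of gene length, scaled to the library's total of assigned fragments). Nothing in the labels ties the replicates to different animals or transfers. The p-values therefore reflect variation among the deposited libraries, part or all of which may be technical. On a principal component analysis of the 6 libraries, the first component (47.5% of variance) placed CLP-cDC2 at -37.2 to -20.3 and CDP-cDC2 at 14.3 to 49.5, with CDP-cDC2 replicate 3 at the far end. CLP-cDC2 replicate 2 also stood apart: its Igkc, the immunoglobulin kappa constant gene, was at 429 FPKM, against 20.1 and 28.5 FPKM in the other CLP-cDC2 libraries and 45.7, 27.2 and 21.7 FPKM in the CDP-cDC2 libraries. The labelled cell type was checked against its markers. Itgax, the integrin CD11c of dendritic cells, was present at 66.95, 55.1 and 60.9 FPKM in CLP-cDC2, against 99.7, 88.3 and 166 FPKM in CDP-cDC2. Flt3, the receptor that dendritic cell growth depends on, was at 96.98, 106 and 102 FPKM in CLP-cDC2, against 88.8, 121 and 94.2 FPKM in CDP-cDC2. Of the 22 genes of the cDC2 identity list, 19 were at 1 FPKM or more in each of the 6 transfer libraries. That level was common, with 13113 to 13583 of 55322 genes reaching it in each of these libraries. Presence at this level therefore does not tell cDC2 from other cells.

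Summed markers of other cell types were compared by library, since bulk RNA from sorted cells can hold a share from other cells, and fewer cells of a type and less RNA per cell cannot be told apart in such samples. The T cell list summed to 15.2 to 25.5 FPKM in CLP-cDC2 and 10.03 to 13.3 FPKM in CDP-cDC2, and 3 of its 10 genes (Cd3e, Cd3d and Cd3g) did not reach 1 FPKM in 3 of the 12 libraries. The B cell list summed to 102.2 to 115 FPKM in CLP-cDC2 and 81.3 to 99.4 FPKM in CDP-cDC2, and Pax5, Ebf1 and Cr2 did not reach that level either. The monocyte and macrophage list summed to 33.0, 118 and 36.7 FPKM in CLP-cDC2 and 159, 130.4 and 153 FPKM in CDP-cDC2. The erythroid and platelet list summed to 53.7, 496 and 107 FPKM in CLP-cDC2 and 28.03, 138 and 29.5 FPKM in CDP-cDC2. CLP-cDC2 replicate 2 was thus the highest CLP-cDC2 library for both of the last lists.

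**Figure D1:**
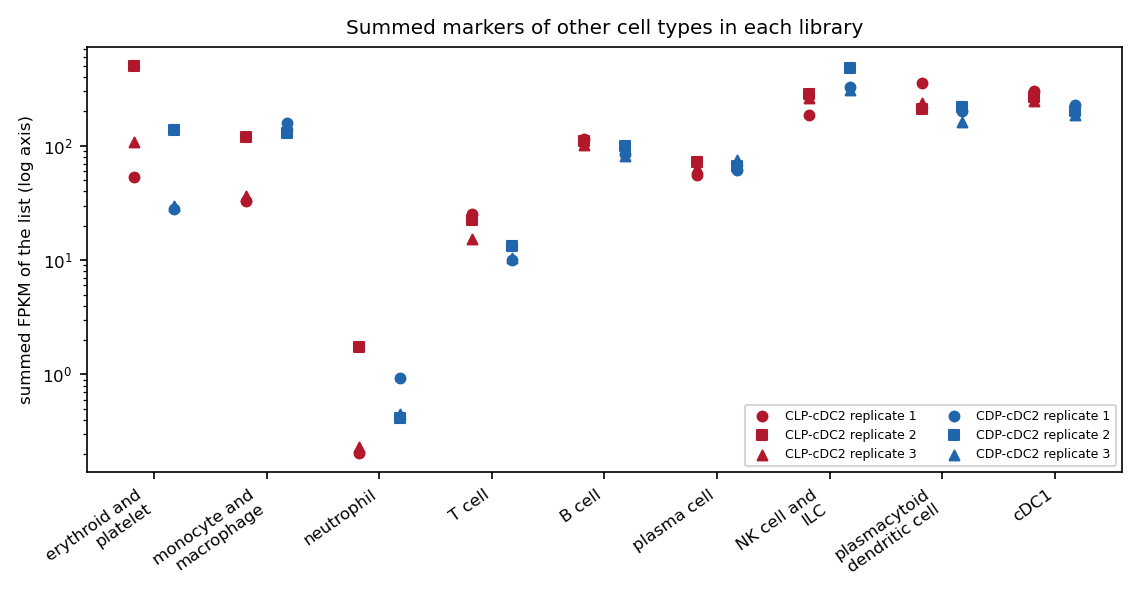
Summed FPKM (log axis) of 9 marker lists of other cell types in each library, with CLP-cDC2 in red and CDP-cDC2 in blue and one symbol per replicate. CLP-cDC2 replicate 2 stands at 496 FPKM for erythroid and platelet genes and 118 FPKM for monocyte and macrophage genes, against 53.7 and 107 FPKM, and 33.0 and 36.7 FPKM, in the other CLP-cDC2 libraries.

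Of 55322 genes, 14538 passed a filter on low values (at least 1 FPKM in at least 3 of the 12 libraries) and were tested with limma on log2(FPKM + 1), a scale on which the change of genes with low values is understated. CLP-cDC2 were higher than CDP-cDC2 in 1021 genes (7.02%) and lower in 889 genes (6.12%) at an adjusted p under 0.05, 1910 genes (13.1%) in either direction. These shares are the background for the counts of list members below. Decreases were larger: 127 of the higher genes and 371 of the lower genes differed by at least 1 on the log2 scale. The 3 CLP-cDC2 libraries lay entirely above the 3 CDP-cDC2 libraries in 2426 genes (16.7%) and entirely below in 1892 genes (13%). Leaving out CLP-cDC2 replicate 2 lowered the counts of called genes to 477 higher and 501 lower, leaving out CLP-cDC2 replicate 1 gave 627 higher, and leaving out CDP-cDC2 replicate 3 gave 596 higher. For every gene called and named below the 3 CLP-cDC2 libraries lay apart from the 3 CDP-cDC2 libraries, except C1qa, Cxcl9 and Trbc1. Among protein-coding genes, calls of lower expression were more frequent at high GC content of the transcript. They made up 10.3% of genes in the top quartile of GC content and 3.88% in the bottom quartile. Removal of GC and length trends gave 1078 protein-coding genes higher and 963 lower. The fit of protein-coding genes with these trends kept gave 1082 higher and 936 lower. Of these calls, 1424 and 1581, respectively, were shared with the main fit in the same direction.

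**Figure D2:**
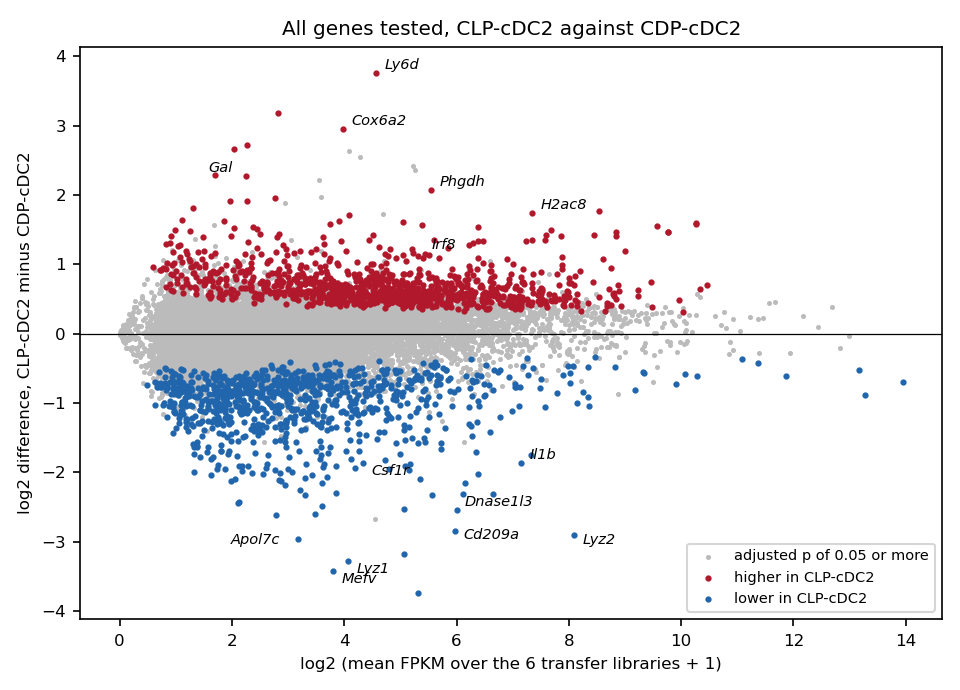
Each point is one of 14538 genes tested, with the mean level over the 6 transfer libraries as log2(FPKM + 1) on the x axis and the log2 difference of CLP-cDC2 minus CDP-cDC2 on the y axis. Red points (1021 genes) were higher and blue points (889 genes) lower in CLP-cDC2. Ly6d, at 3.76, and Mefv, at -3.42, lie near the outer edge in each direction.

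Several genes of myeloid differentiation were lower in CLP-cDC2. Lyz2, the lysozyme of monocytes, macrophages and other myeloid cells, had 41.8, 104 and 54.6 FPKM in CLP-cDC2, against 539.7, 401 and 486 FPKM in CDP-cDC2. The ranges lay far apart, and the log2 difference was -2.91 ± 0.24 (SE, limma adjusted p = 3.39e-05), a 7.14-fold lower mean. Csf1r, the receptor for the macrophage growth factor Csf1, had 7.26, 6.49 and 8.76 FPKM in CLP-cDC2, against 23.99, 26.1 and 41.9 FPKM in CDP-cDC2. It differed by -1.86 ± 0.20 (adjusted p = 0.00023), and no CLP-cDC2 library reached the lowest CDP-cDC2 library. The receptor for granulocyte-macrophage colony-stimulating factor fell in both of its chains. Its ligand-binding chain Csf2ra had 38.3, 39.8 and 37.2 FPKM in CLP-cDC2, against 71.2, 79.5 and 91.9 FPKM in CDP-cDC2 and differed by -1.05 ± 0.12 (adjusted p = 0.000262). The shared signalling chain Csf2rb had 11.9, 7.79 and 9.71 FPKM in CLP-cDC2, against 25.2, 20.4 and 44.5 FPKM in CDP-cDC2, again without overlap, and differed by -1.47 ± 0.26 (adjusted p = 0.00393). In the list of colony-stimulating factor and growth factor receptors, 8 of 20 tested members were lower and 1 (Il7r) was higher in CLP-cDC2, with a median log2 difference of -0.63, against -0.01 over all genes tested, of which 6.12% were lower and 7.02% higher. Of the 5 tested members of the myeloid progenitor list, Lyz2, Csf2ra and Csf2rb were lower.

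Adgre1, the macrophage surface protein F4/80, had 13.8, 16.8 and 17.6 FPKM in CLP-cDC2, against 33.8, 47.9 and 68.3 FPKM in CDP-cDC2 and differed by -1.53 ± 0.21 (limma adjusted p = 0.000788). Cd14, the co-receptor that hands LPS to Tlr4, was low in both groups, at 0.272, 0.519 and 0.340 FPKM in CLP-cDC2, against 3.68, 2.36 and 1.61 FPKM in CDP-cDC2, and differed by -1.33 ± 0.21 (adjusted p = 0.00211). The complement gene C1qa, a marker of tissue macrophages, showed the exception among the CLP-cDC2 libraries: it had 0.0849, 6.32 and 0.0906 FPKM in CLP-cDC2, against 9.68, 5.25 and 7.75 FPKM in CDP-cDC2, so that replicate 2 lay within the CDP-cDC2 range. Its difference of -2.02 ± 0.57 passed the threshold (adjusted p = 0.0359) and did not when any of CLP-cDC2 replicates 1 and 3, CDP-cDC2 replicates 1 and 3 or M-cDC2 replicate 2 was left out (adjusted p up to 0.121), nor with no filter on low values, quantile normalization or the 6 transfer libraries alone. In the monocyte and macrophage list, 5 of 10 tested members were lower and 0 higher, with a median of -1.43. The count was 8 without CLP-cDC2 replicate 2 and 3 without CLP-cDC2 replicate 1. Lyz2, Csf1r and Adgre1 kept their calls in every fit that left out one library. The summed macrophage markers given above include Csf1r, Adgre1, C1qa and Cd14. Without these 4 genes the list summed to 11.7, 88.3 and 9.91 FPKM in CLP-cDC2 and 87.4, 48.7 and 33.8 FPKM in CDP-cDC2. CLP-cDC2 replicate 2 was then the highest library and the other CLP-cDC2 libraries the lowest, and the part of macrophage RNA in the differences was not tested.

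The Fc receptors, which bind the constant region of antibodies, did not all move one way. Fcgr4, the mouse receptor for IgG2 subclasses, had 2.72, 2.67 and 4.07 FPKM in CLP-cDC2, against 19.04, 7.13 and 13.2 FPKM in CDP-cDC2 and differed by -1.69 ± 0.27 (limma adjusted p = 0.00199). The inhibitory receptor Fcgr2b had 6.93, 6.88 and 7.28 FPKM in CLP-cDC2, against 15.9, 21.1 and 11.1 FPKM in CDP-cDC2 and differed by -1.04 ± 0.18 (adjusted p = 0.00352). Both were lower in CLP-cDC2 with no overlap. The low-affinity IgE receptor Fcer2a (CD23), a B cell marker, ran the other way, at 2.04, 3.197 and 2.31 FPKM in CLP-cDC2, against 0.142, 0.530 and 0.111 FPKM in CDP-cDC2, a difference of 1.48 ± 0.18 (adjusted p = 0.000453). Of 10 tested Fc receptor genes, 5 were lower and 2 (Fcer2a and Fcrla) higher in CLP-cDC2, against 6.12% and 7.02% of all genes tested. Only 1 was higher without any single one of CLP-cDC2 replicates 1 and 2 and CDP-cDC2 replicates 1 and 3.

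Predicted genes and pseudogenes were not ranked by size of decrease, which left out Clec7a, annotated as a polymorphic pseudogene. The 15 largest decreases among the genes eligible for ranking were those of Mefv, Lyz1, Apol7c, Lyz2, Cd209a, Ocstamp, Pla2g7, Dnase1l3, Jund, Gp2, Tarm1, Cd300lb, Lamp1, Ear2 and Arf6. Mefv, which encodes pyrin, an inflammasome sensor, had 0.679, 2.06 and 1.58 FPKM in CLP-cDC2, against 21.96, 25.97 and 25.4 FPKM in CDP-cDC2. Its mean was 16.97-fold lower in CLP-cDC2, and its log2 difference of -3.42 ± 0.21 (limma adjusted p = 3.87e-06) was the largest of these. Apol7c, an apolipoprotein L family member of dendritic cells, had 1.46, 0.857 and 0.751 FPKM in CLP-cDC2, against 18.1, 15.5 and 11.2 FPKM in CDP-cDC2, a difference of -2.97 ± 0.21 (adjusted p = 9.78e-06). Apol7c was close to absent from CLP-cDC2 and moderately abundant in CDP-cDC2. Dnase1l3, a secreted DNase that digests chromatin in microparticles, had 13.5, 15.9 and 24.9 FPKM in CLP-cDC2, against 102, 92.4 and 129.9 FPKM in CDP-cDC2 and differed by -2.55 ± 0.19 (adjusted p = 1.33e-05). Ocstamp, a membrane protein needed for osteoclast fusion, had 1.04, 0.959 and 0.728 FPKM in CLP-cDC2, against 14.4, 9.76 and 8.67 FPKM in CDP-cDC2 and differed by -2.62 ± 0.18 (adjusted p = 9.78e-06). In each of these genes the CLP-cDC2 libraries sat together at the low end, far from the lowest CDP-cDC2 library.

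Lyz1, the second lysozyme gene, had 0.892, 2.88 and 1.58 FPKM in CLP-cDC2, against 20.99, 13.2 and 54.9 FPKM in CDP-cDC2, with CDP-cDC2 replicate 3 above the other CDP-cDC2 libraries, and differed by -3.28 ± 0.44 (limma adjusted p = 0.000804). Lyz1 and Lyz2 are close copies, and reads shared between them could be split by the counting. Ear2, an eosinophil-associated ribonuclease, had 18.8, 28.6 and 58.4 FPKM in CLP-cDC2, against 186, 134 and 172 FPKM in CDP-cDC2 and differed by -2.32 ± 0.30 (adjusted p = 0.000641). It too belongs to a family of similar copies. The activating receptor Cd300lb had 2.04, 2.32 and 2.29 FPKM in CLP-cDC2, against 12.4, 14.02 and 20.3 FPKM in CDP-cDC2 and differed by -2.33 ± 0.18 (adjusted p = 2.01e-05). Tarm1, a receptor of myeloid cells, and Gp2, a surface glycoprotein known from M cells, were near 0 in CLP-cDC2: Tarm1 had 0.0143, 0.329 and 0.524 FPKM in CLP-cDC2, against 8.53, 2.69 and 8.02 FPKM in CDP-cDC2, and Gp2 had 0, 0.0110 and 0.554 FPKM in CLP-cDC2, against 4.62, 2.43 and 12.3 FPKM in CDP-cDC2. Their differences were -2.42 ± 0.32 and -2.45 ± 0.37 (adjusted p = 0.000644 and 0.00159).

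**Figure D3:**
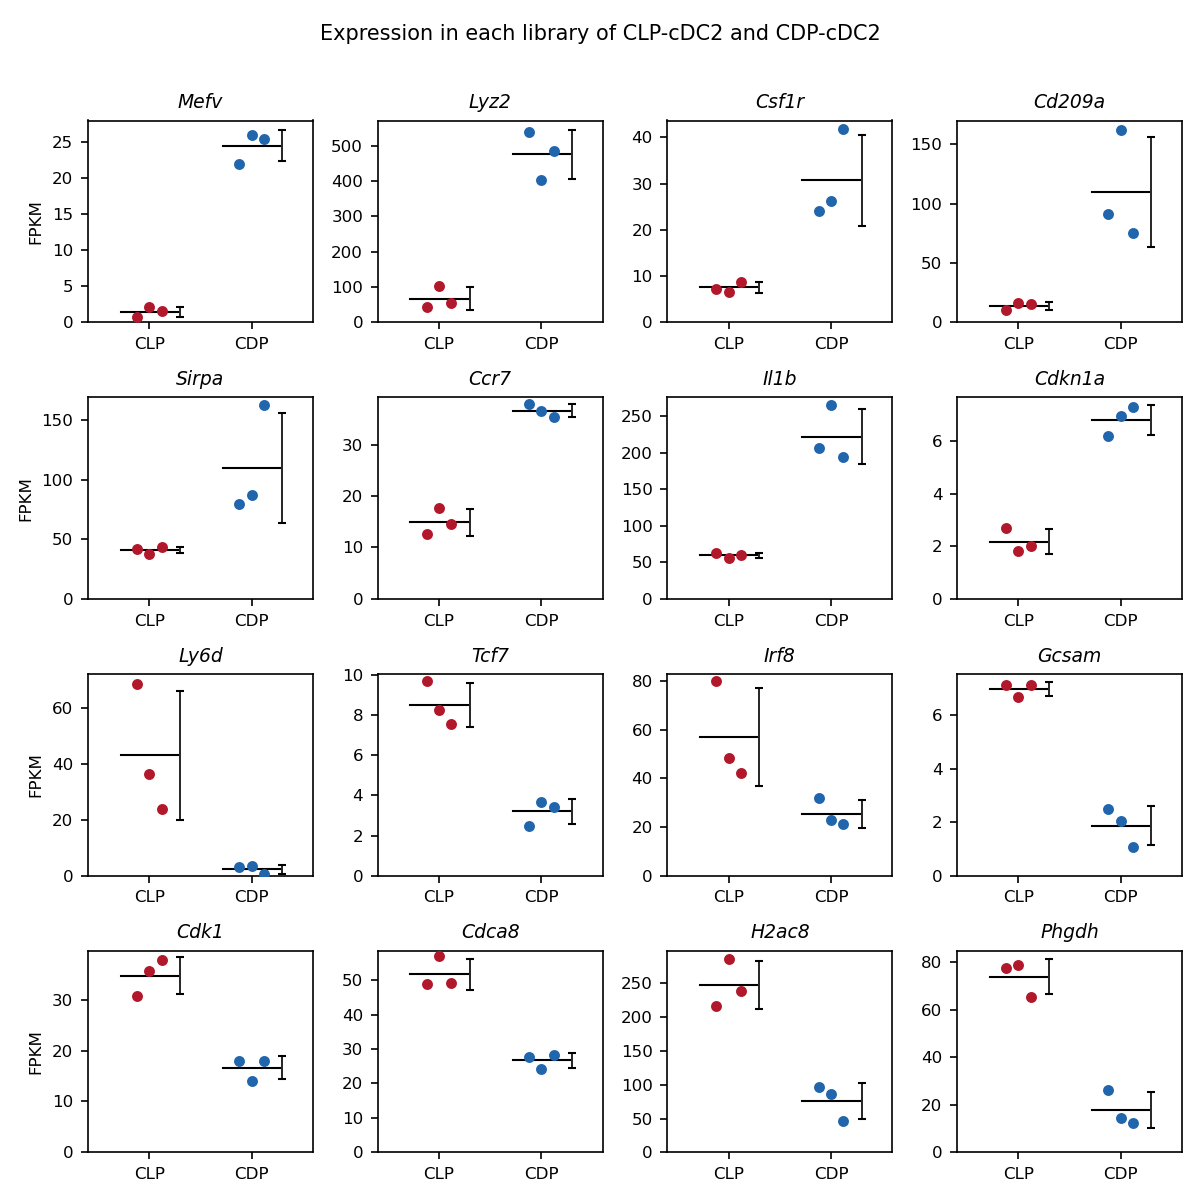
FPKM of 16 genes in each library, with CLP-cDC2 in red on the left and CDP-cDC2 in blue on the right of each panel. Horizontal lines are means and bars are ±1 SD (n = 3 each). All 16 genes show no overlap between the groups, with the 8 upper panels lower and the 8 lower panels higher in CLP-cDC2.

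Genes of the migratory maturation programme, which dendritic cells switch on when they leave for T cell zones, were lower in CLP-cDC2. Of 16 tested members of this list, 12 were lower and 0 higher, with a median log2 difference of -1.19. The count stayed between 12 and 15 when any one library was left out. Ccr7, the chemokine receptor that guides dendritic cells towards T cell zones, had 12.5, 17.7 and 14.5 FPKM in CLP-cDC2, against 37.9, 36.5 and 35.4 FPKM in CDP-cDC2. The CDP-cDC2 libraries lay close together, well above the highest CLP-cDC2 library (replicate 2), and Ccr7 differed by -1.25 ± 0.15 (limma adjusted p = 0.00037). Cacnb3, a calcium channel subunit found in mature dendritic cells, had 0.602, 0.276 and 0.623 FPKM in CLP-cDC2, against 3.89, 5.21 and 5.38 FPKM in CDP-cDC2 and differed by -1.96 ± 0.18 (adjusted p = 5.94e-05). Nudt17, a Nudix hydrolase, was listed at 0, 0 and 0.0210 FPKM in CLP-cDC2 and stood at 3.62, 2.68 and 2.78 FPKM in CDP-cDC2 (adjusted p = 0.000272). Nudt17 overlaps an exon of Pias3 on the other strand, so that its reads cannot be fully separated. Relb, the NF-kB subunit of dendritic cell maturation, had 53.9, 50.7 and 55.8 FPKM in CLP-cDC2, against 91.8, 126 and 119.5 FPKM in CDP-cDC2 and differed by -1.05 ± 0.12 (adjusted p = 0.000281).

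The chemokine Ccl22, which attracts Ccr4+ T cells, had 0, 0.255 and 0.223 FPKM in CLP-cDC2, against 3.67, 4.82 and 1.29 FPKM in CDP-cDC2 and differed by -1.78 ± 0.27 (limma adjusted p = 0.00169). Ccl5, a chemokine that attracts T cells, was far more abundant, at 47.7, 111 and 64.3 FPKM in CLP-cDC2, against 205, 319 and 208 FPKM in CDP-cDC2, and differed by -1.76 ± 0.25 (adjusted p = 0.00112). Ccl5 is also made by NK and T cells. Without Ccl5 and Xcl1, the NK cell and innate lymphoid cell (ILC) list summed to 139, 167 and 196 FPKM in CLP-cDC2 and 121, 159 and 102 FPKM in CDP-cDC2. The groups overlapped, with the CLP-cDC2 libraries on the higher side, opposite to Ccl5. Among 11 tested chemokines 7 were lower and 1 (Xcl1) higher, and 3 were lower without CLP-cDC2 replicate 2 and 4 without CDP-cDC2 replicate 1 or 2. Cd40, the receptor through which T cells license dendritic cells, had 16.3, 17.5 and 16.5 FPKM in CLP-cDC2, against 31.7, 32.3 and 26.9 FPKM in CDP-cDC2 and differed by -0.81 ± 0.12 (adjusted p = 0.00121). The coinhibitory ligand Vsir (VISTA) had 20.7, 19.97 and 21.9 FPKM in CLP-cDC2, against 35.2, 38.5 and 40.3 FPKM in CDP-cDC2 and differed by -0.83 ± 0.11 (adjusted p = 0.000757). In the wider costimulation and coinhibition list 4 of 16 tested members were lower and 1 higher, against 6.12% and 7.02% of all genes tested. The lower count was 2 without CLP-cDC2 replicate 1, CDP-cDC2 replicate 2 or CDP-cDC2 replicate 3.

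Some inflammatory cytokines (5 of 10 tested), lipid mediator genes (3 of 11) and C-type lectins (7 of 15) were lower in CLP-cDC2, and 2 lectins were higher. Il1b, the cytokine interleukin-1 beta, had 63.5, 56.2 and 59.5 FPKM in CLP-cDC2, against 207, 266 and 194 FPKM in CDP-cDC2. Both groups were tight and far apart, and Il1b differed by -1.87 ± 0.14 (limma adjusted p = 1.42e-05). Il18, a cytokine matured by the inflammasome, had 3.13, 9.46 and 6.67 FPKM in CLP-cDC2, against 13.6, 18.97 and 15.3 FPKM in CDP-cDC2 and differed by -1.28 ± 0.26 (adjusted p = 0.0077). Il1rn, the antagonist that blocks the interleukin-1 receptor, fell as well, to 1.12, 1.23 and 1.78 FPKM in CLP-cDC2, against 5.2, 4.11 and 4.03 FPKM in CDP-cDC2, a difference of -1.200 ± 0.15 (adjusted p = 0.000637). Both the cytokine and its antagonist were thus lower. In the inflammasome and interleukin-1 list 6 of 18 tested members were lower and 0 higher, 5 to 7 when one library was left out. In the inflammatory cytokine list 0 genes were higher, and the count of 5 lower was 3 without any single one of CLP-cDC2 replicates 1 and 2 and CDP-cDC2 replicates 2 and 3.

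Cxcl16, a membrane-bound chemokine that binds Cxcr6 on T cells, had 4.41, 3.81 and 6.39 FPKM in CLP-cDC2, against 19.3, 15.4 and 16.3 FPKM in CDP-cDC2 and differed by -1.64 ± 0.19 (limma adjusted p = 0.000281). Ltb4r1, the high-affinity receptor for leukotriene B4, had 0.486, 3.02 and 2.79 FPKM in CLP-cDC2, against 10.7, 10.3 and 10.1 FPKM in CDP-cDC2 and differed by -2.01 ± 0.32 (adjusted p = 0.00211). Ptafr, the receptor for platelet-activating factor, had 0.810, 0.759 and 1.41 FPKM in CLP-cDC2, against 3.69, 5.34 and 4.67 FPKM in CDP-cDC2 and differed by -1.49 ± 0.18 (adjusted p = 0.000449). Pla2g7, the secreted enzyme that breaks platelet-activating factor down, had 1.399, 3.01 and 2.197 FPKM in CLP-cDC2, against 17.9, 15.2 and 21.4 FPKM in CDP-cDC2 and differed by -2.600 ± 0.21 (adjusted p = 3.02e-05). The receptor for this lipid and the enzyme that removes it thus both fell. Ltb4r1, Ptafr and Pla2g7 were the called members among 11 tested genes of lipid mediators, with 0 higher. Without CDP-cDC2 replicate 1, 5 were lower, and 1 was higher without CLP-cDC2 replicate 3 or CDP-cDC2 replicate 2. Pla2g7 overlaps a transcript on the other strand.

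Clec7a (Dectin-1), which binds fungal beta-glucan, had 2.701, 2.35 and 2.78 FPKM in CLP-cDC2, against 15.9, 24.4 and 18.5 FPKM in CDP-cDC2 and differed by -2.495 ± 0.22 (limma adjusted p = 4.3e-05). Clec4n (Dectin-2), which binds mannan-type sugars, had 3.62, 4.84 and 4.35 FPKM in CLP-cDC2, against 27.4, 14.1 and 11.97 FPKM in CDP-cDC2 and differed by -1.75 ± 0.24 (adjusted p = 0.00088). Clec4a3, of the DCIR family, had 29.2, 22.3 and 48.3 FPKM in CLP-cDC2, against 146, 135 and 115 FPKM in CDP-cDC2 and differed by -2.02 ± 0.24 (adjusted p = 0.00037). The CLP-cDC2 libraries of all 3 lectins lay below every CDP-cDC2 library. Among 15 tested C-type lectins 7 were lower and 2 (Clec9a and Clec12a) higher, with a median of -0.75. The higher count was 0 without CLP-cDC2 replicate 1 and 1 without CLP-cDC2 replicate 2, CDP-cDC2 replicate 1 or 3, or M-cDC2 replicate 2. Tlr7, the endosomal sensor of single-stranded RNA, had 1.36, 2.26 and 2.39 FPKM in CLP-cDC2, against 4.29, 4.22 and 5.84 FPKM in CDP-cDC2 and differed by -0.95 ± 0.18 (adjusted p = 0.00556). The Toll-like receptor sensing list had 7 of 21 tested members lower and 0 higher, and 3 lower without any single one of CLP-cDC2 replicates 1 and 2 and CDP-cDC2 replicates 2 and 3, and 4 without M-cDC2 replicate 2 or L-cDC2 replicate 3.

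Called members of the AP-1 and NF-kB lists were lower in CLP-cDC2, as were Arf6 and Lamp1. Jund, a subunit of the AP-1 transcription factor, had 8.12, 5.17 and 9.56 FPKM in CLP-cDC2, against 21.1, 48.5 and 103 FPKM in CDP-cDC2 and differed by -2.53 ± 0.47 (limma adjusted p = 0.00455). Arf6, a small GTPase of endosome recycling, had 19.1, 15.2 and 24.9 FPKM in CLP-cDC2, against 50.7, 98.03 and 204 FPKM in CDP-cDC2 and differed by -2.32 ± 0.48 (adjusted p = 0.00865). Lamp1, a main protein of the lysosome membrane, had 16.1, 10.5 and 17.2 FPKM in CLP-cDC2, against 56.3, 76.9 and 100.5 FPKM in CDP-cDC2 and differed by -2.33 ± 0.34 (adjusted p = 0.00115). CDP-cDC2 replicate 3 was the highest and CDP-cDC2 replicate 1 the lowest CDP-cDC2 library for all 3 genes, yet no library overlapped. Dusp2, a phosphatase of MAP kinases, had 16.9, 10.2 and 12.3 FPKM in CLP-cDC2, against 33.8, 72.9 and 60.5 FPKM in CDP-cDC2 and differed by -1.97 ± 0.41 (adjusted p = 0.00869). Bcl3, a nuclear regulator of NF-kB dimers, had 26.5, 15.9 and 35.95 FPKM in CLP-cDC2, against 86.3, 85.2 and 60.2 FPKM in CDP-cDC2 and differed by -1.58 ± 0.23 (adjusted p = 0.0013). All 5 genes kept their calls when GC and length trends were removed, and those of Arf6 and Dusp2 were lost with no filter on low values (adjusted p = 0.0646 and 0.0639). Jund, Arf6 and Bcl3 overlap antisense transcripts and Lamp1 overlaps Grtp1 on the other strand, and no label or header says whether reads were counted by strand. The transcripts antisense to Jund and Bcl3 were themselves lower in CLP-cDC2. In the NF-kB list 5 of 17 tested members (Nfkb2, Relb, Nfkbie, Bcl3 and Tnip1) were lower and 0 higher, and 3 were lower without CLP-cDC2 replicate 2. In the AP-1 and immediate-early list 8 of 20 tested members were lower and 0 higher. Without CDP-cDC2 replicate 1 the count was 13, without CLP-cDC2 replicate 2 it was 4, and without CLP-cDC2 replicate 1, CDP-cDC2 replicate 2 or CDP-cDC2 replicate 3 it was 5.

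**Figure D4:**
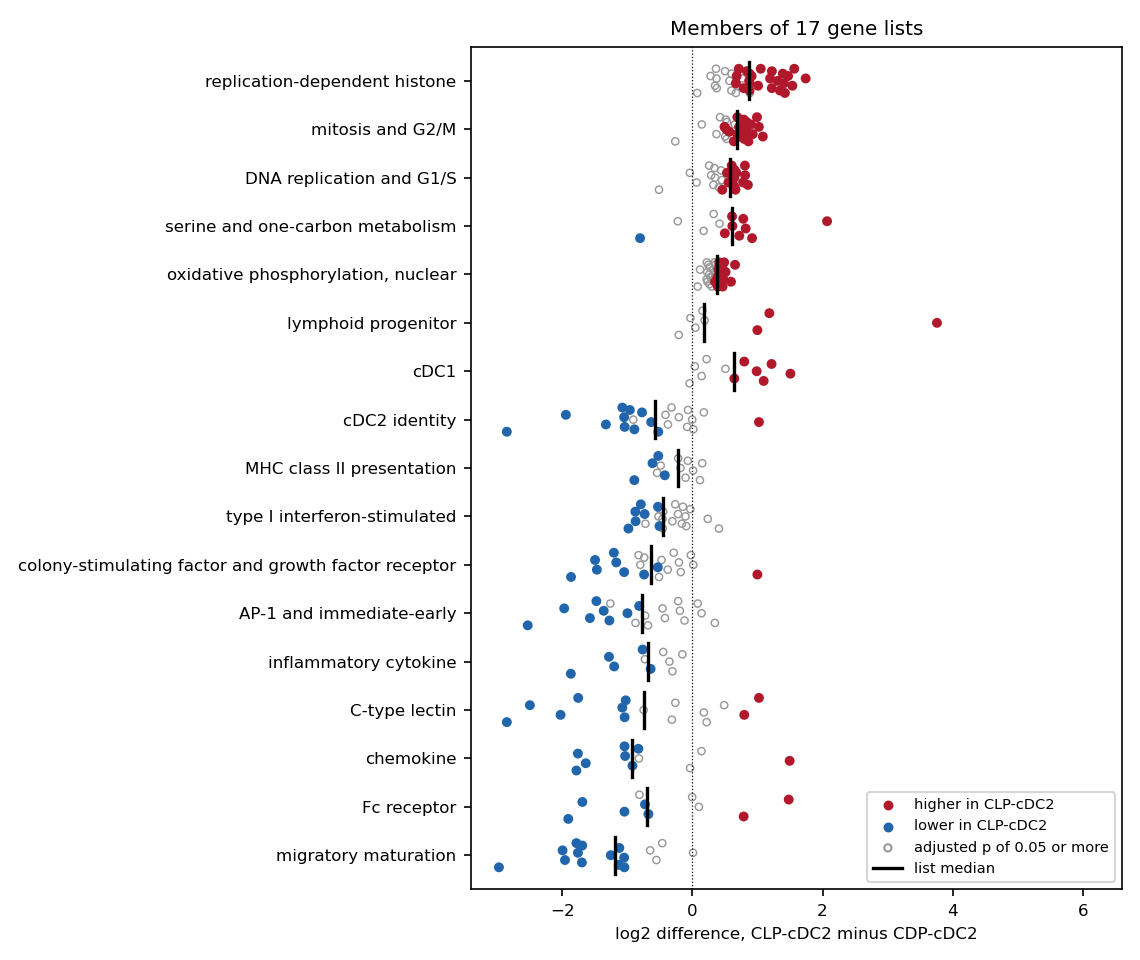
Each point is a tested gene of one of 17 lists, placed by its log2 difference of CLP-cDC2 minus CDP-cDC2. Red and blue points passed an adjusted p of 0.05 and black bars are list medians, from 0.88 for replication-dependent histones at the top to -1.19 for migratory maturation at the bottom.

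The surface identity of cDC2 was itself unequal between the groups. Sirpa, the receptor for CD47 that marks cDC2, had 41.6, 38.1 and 43.3 FPKM in CLP-cDC2, against 79.4, 87.2 and 163 FPKM in CDP-cDC2 and differed by -1.33 ± 0.24 (limma adjusted p = 0.00408). Cd4, carried by a subset of splenic cDC2, had 3.91, 6.24 and 9.98 FPKM in CLP-cDC2, against 19.6, 36.4 and 27.8 FPKM in CDP-cDC2 and differed by -1.94 ± 0.26 (adjusted p = 0.000763). The lectin Cd209a (DC-SIGN) had 10.1, 16.1 and 15.2 FPKM in CLP-cDC2, against 91.1, 162 and 75.2 FPKM in CDP-cDC2, and its difference of -2.85 ± 0.25 (adjusted p = 4.3e-05) was the largest of the list. Clec10a, a galactose-binding lectin, had 1.43, 1.497 and 1.15 FPKM in CLP-cDC2, against 4.23, 3.46 and 4.22 FPKM in CDP-cDC2 and differed by -1.07 ± 0.18 (adjusted p = 0.00238). The identity list had 11 of 22 members lower and 1 (Clec12a) higher, with a median of -0.58. The lower count was 7 and no longer held Itgax (difference -0.89 ± 0.23, adjusted p = 0.0263) without CDP-cDC2 replicate 3. The call of Itgax was also lost without CLP-cDC2 replicate 2 or 3, with no filter on low values and with the 6 transfer libraries alone (adjusted p up to 0.122), and that of Clec12a without CLP-cDC2 replicate 1.

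Among the transcription factors that shape cDC2, Irf4 and Klf4 gave no call. Irf4 had 5.801, 6.05 and 5.22 FPKM in CLP-cDC2, against 5.196, 5.33 and 7.95 FPKM in CDP-cDC2, with overlapping ranges, and Klf4 had 26.5, 15.7 and 24.9 FPKM in CLP-cDC2, against 33.04, 26.3 and 29.2 FPKM in CDP-cDC2. Their log2 differences were -0.08 ± 0.19 and -0.41 ± 0.19 (limma adjusted p = 0.814 and 0.17). Flt3 differed by 0.02 ± 0.13 (adjusted p = 0.95). Irf4 and Flt3 moved with single libraries: without CDP-cDC2 replicate 3, Irf4 differed by 0.09, and without CDP-cDC2 replicate 1, Flt3 differed by -0.07. Zbtb46, the factor that marks conventional dendritic cells, had 8.03, 8.19 and 9.55 FPKM in CLP-cDC2, against 13.98, 15.6 and 24.9 FPKM in CDP-cDC2 and differed by -0.96 ± 0.19 (adjusted p = 0.00705). Runx1, a regulator of haematopoiesis, had 3.33, 2.92 and 3.46 FPKM in CLP-cDC2, against 7.34, 5.81 and 6.09 FPKM in CDP-cDC2 and differed by -0.80 ± 0.15 (adjusted p = 0.00502). Zeb2, which represses the cDC1 programme, was low in both groups, at 0.686, 1.08 and 1.47 FPKM in CLP-cDC2, against 2.31, 1.97 and 2.28 FPKM in CDP-cDC2, and its call (difference -0.63 ± 0.19, adjusted p = 0.0479) was lost without any of CLP-cDC2 replicates 1 and 2, the 3 CDP-cDC2 libraries, L-cDC2 replicate 1 and M-cDC2 replicates 1 and 2. The integrin Itgam (CD11b) differed by -0.77 ± 0.22 (adjusted p = 0.0392), a call lost without any of CLP-cDC2 replicates 2 and 3, CDP-cDC2 replicates 1 and 3, L-cDC2 replicate 3 and M-cDC2 replicates 1 and 2. The calls of Zeb2 and Itgam were also lost with no filter on low values and with the 6 transfer libraries alone, that of Zeb2 with a pseudocount of 0.1 or quantile normalization and that of Itgam with array weights. Of 26 tested dendritic cell transcription factors, 5 were lower and 2 (Irf8 and Id2) higher, against 6.12% and 7.02% of all genes tested. Without CLP-cDC2 replicate 1 or 2 these counts were 3 and 1, and without CDP-cDC2 replicate 3 1 was higher.

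Of 11 tested genes of the cDC1 lineage, the other conventional dendritic cell type, 6 (Xcr1, Clec9a, Irf8, Cd8a, Gcsam and Cd36) were higher in CLP-cDC2 and 0 lower, with a median of 0.65. Irf8, the factor on which cDC1 depend, had 79.9, 48.6 and 42.3 FPKM in CLP-cDC2, against 32.1, 23.03 and 21.4 FPKM in CDP-cDC2 and differed by 1.096 ± 0.21 (limma adjusted p = 0.00502). Gcsam, a signalling adaptor first known from germinal centre B cells, had 7.12, 6.67 and 7.13 FPKM in CLP-cDC2, against 2.501, 2.04 and 1.07 FPKM in CDP-cDC2, with the CLP-cDC2 libraries close together, and differed by 1.51 ± 0.22 (adjusted p = 0.00112). Cd36, a scavenger receptor, had 3.55, 4.22 and 4.14 FPKM in CLP-cDC2, against 1.65, 1.34 and 1.52 FPKM in CDP-cDC2 and differed by 0.99 ± 0.14 (adjusted p = 0.0011). Id2, an inhibitor of E proteins, had 434, 451 and 394 FPKM in CLP-cDC2, against 369.7, 221 and 200.4 FPKM in CDP-cDC2 and differed by 0.74 ± 0.19 (adjusted p = 0.021), a call lost without any single one of CLP-cDC2 replicates 1 and 2 and CDP-cDC2 replicates 2 and 3, with no filter on low values and with the 6 transfer libraries alone. Of the cDC1 list 3 were higher without CLP-cDC2 replicate 2 or CDP-cDC2 replicate 3. Batf3, Cadm1, Tlr3 and Wdfy4, also of this list, gave no call. The cDC1 list summed to 246.6 to 301.3 FPKM in CLP-cDC2 and 185 to 227.6 FPKM in CDP-cDC2. Without Irf8, Gcsam and Cd36 it summed to 193 to 211 FPKM and 161 to 191 FPKM. The groups did not overlap in either sum, and the second sum still holds Xcr1, Clec9a and Cd8a. The part of cDC1 RNA in the differences was not tested.

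Some genes of antigen presentation on MHC class II were lower in CLP-cDC2. The beta chain H2-Ab1 had 6712, 8371 and 7595 FPKM in CLP-cDC2, against 10590, 11340 and 10550 FPKM in CDP-cDC2 and differed by -0.52 ± 0.11 (limma adjusted p = 0.0101), a call lost with no filter on low values, under quantile normalization and with the 6 transfer libraries alone (adjusted p up to 0.265). The invariant chain Cd74, which escorts class II molecules, had 6511, 6682 and 7448 FPKM in CLP-cDC2, against 11030, 12210 and 15350 FPKM in CDP-cDC2 and differed by -0.89 ± 0.13 (adjusted p = 0.00102). Of 13 tested class II genes 4 (H2-Aa, H2-Ab1, H2-Eb1 and Cd74) were lower and 0 higher, and 2 were lower without CLP-cDC2 replicate 1 or CDP-cDC2 replicate 2. Among interferon-stimulated genes, Ifit1, which binds viral RNA, had 3.404, 5.02 and 5.08 FPKM in CLP-cDC2, against 8.303, 10.5 and 10.6 FPKM in CDP-cDC2 and differed by -0.98 ± 0.21 (adjusted p = 0.00958). The GTPase Gbp2 had 6.78, 3.32 and 5.36 FPKM in CLP-cDC2, against 13.9, 9.71 and 12.6 FPKM in CDP-cDC2 and differed by -1.11 ± 0.22 (adjusted p = 0.0068). The type I interferon list had 7 of 23 tested members lower and 0 higher. The count was 2 without CLP-cDC2 replicate 1 or 2 and 3 without CDP-cDC2 replicate 2 or 3. In the list of guanylate-binding and interferon-gamma genes 5 of 15 tested members (Gbp2, Gbp4, Gbp5, Cxcl9 and Cxcl10) were lower and 0 higher. That count was 2 without CLP-cDC2 replicate 2, and 3 without CLP-cDC2 replicate 1 or 3, CDP-cDC2 replicate 1 or 2, or M-cDC2 replicate 2.

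Of 8 tested lymphoid progenitor genes 3 (Ly6d, Il7r and Tcf7) were higher in CLP-cDC2 and 0 lower, with a median of 0.17. Ly6d, a surface protein of lymphoid progenitors, B cells and plasmacytoid dendritic cells, had 68.8, 36.4 and 23.9 FPKM in CLP-cDC2, against 2.94, 3.45 and 0.494 FPKM in CDP-cDC2. It rose most among the genes eligible to be named, by 3.76 ± 0.45 (limma adjusted p = 0.000453), a 18.7-fold higher mean, and CLP-cDC2 replicate 1 stood well above the other CLP-cDC2 libraries. Il7r, the interleukin-7 receptor that CLPs depend on, had 3.16, 2.36 and 2.91 FPKM in CLP-cDC2, against 1.16, 0.895 and 0.678 FPKM in CDP-cDC2 and differed by 0.9993 ± 0.18 (adjusted p = 0.00347). Tcf7, the T lineage factor TCF-1, had 9.695, 8.28 and 7.54 FPKM in CLP-cDC2, against 2.49, 3.69 and 3.43 FPKM in CDP-cDC2 and differed by 1.18 ± 0.15 (adjusted p = 0.000641). None of the 3 genes overlapped between groups, and all kept their calls when any one library was left out. Rag1, Rag2 and Dntt, which rearrange antigen receptor genes, did not pass the filter.

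Lck, the proximal kinase of the T cell receptor, had 11.1, 5.03 and 3.92 FPKM in CLP-cDC2, against 0.243, 1.47 and 1.19 FPKM in CDP-cDC2 and differed by 1.92 ± 0.32 (limma adjusted p = 0.00241). Its sequence holds the microRNA gene Mir8119, which can share its reads. Blk, a related kinase of the B lineage, had 5.17, 4.88 and 4.22 FPKM in CLP-cDC2, against 1.05, 1.96 and 2.94 FPKM in CDP-cDC2 and differed by 0.996 ± 0.21 (adjusted p = 0.00922), a call lost with the 6 transfer libraries alone. Xcl1, the chemokine that attracts Xcr1+ cDC1 and is made by NK and T cells, was at 1.52, 3.23 and 1.103 FPKM in CLP-cDC2 and listed at 0 in all 3 CDP-cDC2 libraries (adjusted p = 0.00261). In the B cell list 5 of 9 tested genes were higher and 0 lower. That count was 2 or 3 without CLP-cDC2 replicates 1, 2 or 3, CDP-cDC2 replicates 1 or 3, any L-cDC2 library or M-cDC2 replicate 2. In the T cell list 2 of 7 tested genes (Trbc1 and Lck) were higher, and 1 was without any single one of CLP-cDC2 replicates 1 and 2 and CDP-cDC2 replicates 1 and 3. The summed B and T cell markers given above include genes named here. Without Lck and Trbc1 the T cell list summed to 11.9, 14.3 and 10.2 FPKM in CLP-cDC2 and 9.76, 10.7 and 9.14 FPKM in CDP-cDC2. Without Blk and Fcer2a the B cell list summed to 108, 101.9 and 95.7 FPKM in CLP-cDC2 and 83.5, 96.9 and 78.2 FPKM in CDP-cDC2. The groups overlapped in both, and the part of B and T cell RNA in the differences was not tested.

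Several other genes rose strongly and kept their calls whichever library was left out. Gal, the neuropeptide galanin, had 4.41, 10.1 and 6.07 FPKM in CLP-cDC2, against 0.0347, 0.950 and 0.871 FPKM in CDP-cDC2 and differed by 2.27 ± 0.33 (limma adjusted p = 0.00114). Cox6a2, the muscle-type subunit of cytochrome c oxidase that plasmacytoid dendritic cells also carry, had 56.1, 13.1 and 13.01 FPKM in CLP-cDC2, against 3.66, 2.202 and 0.631 FPKM in CDP-cDC2, with CLP-cDC2 replicate 1 far above the others, and differed by 2.95 ± 0.52 (adjusted p = 0.00361). Cox6a2 overlaps Itgad on the other strand. Cd24a, a surface glycoprotein of early lymphoid cells and cDC1, had 60.7, 46.3 and 36.8 FPKM in CLP-cDC2, against 21.3, 17.8 and 8.296 FPKM in CDP-cDC2 and differed by 1.61 ± 0.30 (adjusted p = 0.00452). CLP-cDC2 replicate 1 was the highest library for Ly6d, Lck, Cox6a2, Cd24a and Irf8. Of 10 tested plasmacytoid dendritic cell genes 2 (Ly6d and Cox6a2) were higher and 1 lower, against 7.02% and 6.12% of all genes tested. The list median was 0.40, and 0 to 2 were lower when a library was left out. Without Ly6d and Cox6a2, the list summed to 229.5, 162 and 198 FPKM in CLP-cDC2 and 195, 214 and 161 FPKM in CDP-cDC2, and the groups overlapped. Tdgf1, a co-receptor of Nodal, had 11.7, 8.598 and 8.59 FPKM in CLP-cDC2, against 2.94, 0.544 and 2.31 FPKM in CDP-cDC2 and differed by 1.95 ± 0.30 (adjusted p = 0.0017). Tpm2, a tropomyosin that coats actin filaments, had 16.02, 22.5 and 18.98 FPKM in CLP-cDC2, against 7.93, 4.55 and 5.005 FPKM in CDP-cDC2 and differed by 1.58 ± 0.19 (adjusted p = 0.000476). Dkkl1 and the lens protein gene Grifin differed by 1.54 ± 0.23 and 1.52 ± 0.30 (adjusted p = 0.00148 and 0.00673).

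Many genes of cell division were higher in CLP-cDC2. Of 28 tested mitosis and G2/M genes 19 were higher and 0 lower, with a median of 0.69, and 15 to 22 were higher when one library was left out. Of 28 tested DNA replication and G1/S genes 15 were higher and 0 lower, with a median of 0.58, and 9 were higher without CDP-cDC2 replicate 2. Over all genes tested, 7.02% were higher and the median was -0.01. The promoters of 3 mitosis genes, Cdk1, Ccnb1 and Cdca8, are shown because these genes rose together and because G2/M promoters are known for a pair of short elements, the cell cycle homology region (CHR) and the CCAAT box. The sequences are from RefSeq (GRCm38.p6), 250 bases before to 50 bases after the start of the gene, and run 5′ to 3′ on the minus strand, on which all 3 genes lie. Capitals mark matches to TTTGAA or CCAAT on either strand, so that a reverse CCAAT reads ATTGG and a reverse TTTGAA reads TTCAAA. The positions are chr10:69352863-69353162 for Cdk1, chr13:100786437-100786736 for Ccnb1 and chr4:124936868-124937167 for Cdca8.
Cdk1: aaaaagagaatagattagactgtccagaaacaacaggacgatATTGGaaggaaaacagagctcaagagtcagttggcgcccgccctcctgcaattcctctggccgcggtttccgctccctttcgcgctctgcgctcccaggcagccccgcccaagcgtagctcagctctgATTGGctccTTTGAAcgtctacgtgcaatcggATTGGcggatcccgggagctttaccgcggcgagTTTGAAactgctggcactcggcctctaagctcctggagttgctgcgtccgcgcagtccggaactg
Ccnb1: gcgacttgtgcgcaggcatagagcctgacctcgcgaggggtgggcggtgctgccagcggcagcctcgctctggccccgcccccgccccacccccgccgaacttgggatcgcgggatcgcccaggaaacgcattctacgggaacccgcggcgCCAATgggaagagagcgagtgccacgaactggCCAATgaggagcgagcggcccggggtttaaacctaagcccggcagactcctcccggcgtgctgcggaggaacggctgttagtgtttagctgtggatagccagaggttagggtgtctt
Cdca8: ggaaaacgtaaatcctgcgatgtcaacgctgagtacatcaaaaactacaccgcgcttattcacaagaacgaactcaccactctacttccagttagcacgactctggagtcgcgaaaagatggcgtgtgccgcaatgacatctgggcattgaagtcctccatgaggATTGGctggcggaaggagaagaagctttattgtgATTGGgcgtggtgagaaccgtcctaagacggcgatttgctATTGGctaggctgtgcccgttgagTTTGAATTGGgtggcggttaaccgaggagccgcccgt
These windows are 300 bases long. The Cdk1 promoter held 2 TTTGAA and 3 CCAAT matches, Ccnb1 held 0 and 2, and Cdca8 held 1 and 4. In Cdca8 the TTTGAA match and 1 reverse CCAAT match share a base. TTTGAA was found in 18 of 24 promoters of the mitosis list (75.0%), where 23 of 28 genes were matched, and in 2 of 24 promoters of the replication list (8.3%), against 17.9% of all 32851 promoters of the same length and 13.3% of the promoters of genes tested. Among the promoters of mitosis genes called higher it was found in 11 of 16 (68.8%). CCAAT was found in 83.3% and 70.8% of the promoters of these lists, against 37.4% of all promoters and 38.7% of those of genes tested, and in 75.0% of those of mitosis genes called higher. A match describes the letters of the window only.

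Cdk1, the kinase that drives entry into mitosis, had 30.6, 35.6 and 37.8 FPKM in CLP-cDC2, against 17.9, 13.96 and 18.03 FPKM in CDP-cDC2 and differed by 1.02 ± 0.15 (limma adjusted p = 0.0012). Its partner cyclin B1, Ccnb1, had 37.8, 36.1 and 46.7 FPKM in CLP-cDC2, against 15.5, 16.1 and 24.6 FPKM in CDP-cDC2 and differed by 1.08 ± 0.20 (adjusted p = 0.004). Cdca8, borealin of the chromosomal passenger complex, had 48.9, 56.9 and 49.2 FPKM in CLP-cDC2, against 27.8, 24.1 and 28.2 FPKM in CDP-cDC2 and differed by 0.93 ± 0.11 (adjusted p = 0.000453). Their means were 2.09-fold, 2.15-fold and 1.94-fold higher in CLP-cDC2, and no library overlapped. Ube2c, the ubiquitin-conjugating enzyme of mitotic exit, had 120.4, 116 and 152 FPKM in CLP-cDC2, against 80.9, 48.7 and 66.3 FPKM in CDP-cDC2 and differed by 0.99 ± 0.19 (adjusted p = 0.00497). Mki67, the proliferation marker Ki-67, had 31.9, 25.1 and 25.9 FPKM in CLP-cDC2, against 27.8, 15.6 and 18.96 FPKM in CDP-cDC2 with overlapping ranges, and its difference of 0.42 ± 0.19 gave no call (adjusted p = 0.16), although without CDP-cDC2 replicate 1 it was 0.64 and called.

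In DNA replication, the primase subunit Prim1 had 26, 28.3 and 27.8 FPKM in CLP-cDC2, against 15.5, 16.9 and 13.3 FPKM in CDP-cDC2 and differed by 0.81 ± 0.13 (limma adjusted p = 0.00255). Cdc45, part of the replicative helicase, had 26.1, 28.4 and 25.4 FPKM in CLP-cDC2, against 15, 13.4 and 16 FPKM in CDP-cDC2 and differed by 0.81 ± 0.13 (adjusted p = 0.00182). Cdc45 shares exonic sequence with Ufd1 on the other strand. Tyms, which makes thymidylate for DNA, had 27.4, 34.1 and 34.4 FPKM in CLP-cDC2, against 18.6, 16.8 and 18.9 FPKM in CDP-cDC2 and differed by 0.78 ± 0.12 (adjusted p = 0.0017). Replication-dependent histone genes moved in the same direction: 24 of 38 tested genes were higher and 0 lower, with a median of 0.88, and 15 were higher without CLP-cDC2 replicate 2 or without CDP-cDC2 replicate 3. H2ac8, a histone H2A gene, had 216, 286 and 239 FPKM in CLP-cDC2, against 96.3, 85.9 and 46.4 FPKM in CDP-cDC2 and differed by 1.74 ± 0.24 (adjusted p = 0.000955). H2ac4 had 119, 132 and 112 FPKM in CLP-cDC2, against 61.4, 38.9 and 28.7 FPKM in CDP-cDC2 and differed by 1.54 ± 0.26 (adjusted p = 0.00313). The linker histone gene H1f5 had 54.7, 54.97 and 71 FPKM in CLP-cDC2, against 35.3, 18.8 and 10.99 FPKM in CDP-cDC2 and differed by 1.57 ± 0.30 (adjusted p = 0.00517). Histone H2A genes are near-identical copies, and H2ac8 and H2ac4 overlap small RNA entries, so values of single members are uncertain. Most such messages lack a poly(A) tail, and the share captured by these libraries was not tested.

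Inhibitors of the cell cycle did not move as one. Cdkn1a (p21), which blocks cyclin-dependent kinases, had 2.71, 1.82 and 1.99 FPKM in CLP-cDC2, against 6.18, 6.95 and 7.28 FPKM in CDP-cDC2 and differed by -1.31 ± 0.17 (limma adjusted p = 0.000612). Cdkn2b (p15) was at 0, 0.126 and 0 FPKM in CLP-cDC2 and 1.75, 1.78 and 1.94 FPKM in CDP-cDC2, a difference of -1.44 ± 0.18 (adjusted p = 0.000487). Cdkn2d (p19), another inhibitor of Cdk4 and Cdk6, was higher, at 87.03, 73.7 and 75.5 FPKM in CLP-cDC2, against 50.1, 38.5 and 45.2 FPKM in CDP-cDC2, a difference of 0.81 ± 0.13 (adjusted p = 0.00215). Of 10 tested inhibitors 3 were lower and 1 higher, against 6.12% and 7.02% of all genes tested.

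Serine and one-carbon metabolism, which feeds nucleotide synthesis, had 8 of 13 tested genes higher, with a median of 0.61, and 5 higher without CDP-cDC2 replicate 3. Phgdh, the first enzyme of serine synthesis, had 77.5, 78.8 and 65.4 FPKM in CLP-cDC2, against 26.4, 14.3 and 12.3 FPKM in CDP-cDC2. It differed by 2.07 ± 0.22 (limma adjusted p = 0.000167), a 4.17-fold higher mean, and no library overlapped. Psat1, the next enzyme of the pathway, had 15.6, 13.6 and 10.6 FPKM in CLP-cDC2, against 6.48, 6.74 and 7.81 FPKM in CDP-cDC2 and differed by 0.82 ± 0.15 (adjusted p = 0.00426). Shmt2, which passes the serine carbon to folate in mitochondria, had 34.2, 37.3 and 30.5 FPKM in CLP-cDC2, against 21.3, 15.1 and 16.5 FPKM in CDP-cDC2 and differed by 0.92 ± 0.14 (adjusted p = 0.00155). In glycolysis 5 of 21 tested genes were higher and 3 lower, with a median of 0.01. Pgk1, whose step yields ATP, had 87.2, 84.3 and 71.7 FPKM in CLP-cDC2, against 52.5, 41.6 and 49.5 FPKM in CDP-cDC2 and differed by 0.75 ± 0.13 (adjusted p = 0.00341). Tpi1, which interconverts the triose phosphates, had 104, 115 and 91.7 FPKM in CLP-cDC2, against 76.2, 61.7 and 56.5 FPKM in CDP-cDC2 and differed by 0.67 ± 0.14 (adjusted p = 0.00851). Pfkfb3, which makes the activator of the committed step, was lower, at 4.63, 4.21 and 4.08 FPKM in CLP-cDC2, against 9.16, 11.2 and 13.3 FPKM in CDP-cDC2, a difference of -1.19 ± 0.16 (adjusted p = 0.000826). The count of lower members was 1 under quantile normalization or median-of-ratios scaling, and 1 without CLP-cDC2 replicate 1 or 3, CDP-cDC2 replicate 3, any L-cDC2 library or M-cDC2 replicate 1 or 2.

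Nuclear genes of oxidative phosphorylation differed by small amounts. Of 40 tested genes 17 were higher and 0 lower, with a median of 0.37, and the count fell to 1 under quantile normalization. It was 3 without CLP-cDC2 replicate 2, 5 without CLP-cDC2 replicate 1 or CDP-cDC2 replicate 3, 8 without CLP-cDC2 replicate 3 or CDP-cDC2 replicate 2, 11 without replicate 1 of either L-cDC2 or M-cDC2, and 10 without M-cDC2 replicate 2. Atp5c1, the gamma subunit of ATP synthase, had 340.3, 306 and 321 FPKM in CLP-cDC2, against 229.7, 223 and 236 FPKM in CDP-cDC2 and differed by 0.49 ± 0.10 (limma adjusted p = 0.00624), a call lost under quantile normalization. Dkc1, the pseudouridine synthase of ribosome biogenesis, had 26.9, 31.97 and 29.3 FPKM in CLP-cDC2, against 18.9, 16.99 and 16.4 FPKM in CDP-cDC2 and differed by 0.72 ± 0.16 (adjusted p = 0.0108).

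The lineage difference after transfer was then set beside that of the reporter mice, L-cDC2 minus M-cDC2, which uses other libraries. The difference between the systems was called for 871 genes (5.99%), 346 higher and 525 lower in the transfer contrast, and 684 of the 1910 genes called after transfer were among them. L-cDC2 and M-cDC2 themselves differed in 252 genes (1.73%), and 66 genes were called in the same direction in both contrasts. The count of 871 was 512 without CLP-cDC2 replicate 1, 424 without CLP-cDC2 replicate 2 and 578 without CDP-cDC2 replicate 3. It was 397, 190 and 322 without L-cDC2 replicates 1, 2 and 3, and 348 and 514 without M-cDC2 replicates 2 and 3. Ly6d, Lck, Tcf7 and Gal were higher on the lymphoid side in both. Ly6d stood at 45.9, 33.2 and 41.2 FPKM in L-cDC2, against 0.954, 0.0273 and 1.64 FPKM in M-cDC2, a difference of 4.55 ± 0.45 in the reporter mice (limma adjusted p = 8.46e-05), and the systems differed by -0.79 ± 0.64 (adjusted p = 0.481). Lck differed by 2.84 ± 0.32 in reporter mice (adjusted p = 0.000176), and the systems differed by -0.93 ± 0.45 (adjusted p = 0.218). Tcf7 and Gal differed by 1.25 ± 0.15 and 1.99 ± 0.33 in reporter mice (adjusted p = 0.000439 and 0.00468). Lyz2, Cd209a and Il1b were lower on the lymphoid side of both systems, and the gap was larger after transfer. Lyz2 differed by -1.36 ± 0.24 in reporter mice (adjusted p = 0.00869), and the systems differed by -1.55 ± 0.34 (adjusted p = 0.0233). Cd209a and Il1b differed by -1.32 ± 0.25 and -0.95 ± 0.14 in reporter mice (adjusted p = 0.0124 and 0.00204). For Cd209a the systems differed by -1.53 ± 0.35 (adjusted p = 0.0269), and for Il1b by -0.92 ± 0.20 (adjusted p = 0.0211). These 3 calls of a larger gap did not hold without single libraries: for Lyz2, M-cDC2 replicate 2 or any of the L-cDC2 libraries, for Cd209a, CLP-cDC2 replicate 1, M-cDC2 replicate 2 or 3 or any of the L-cDC2 libraries, and for Il1b, CLP-cDC2 replicate 2 or either of L-cDC2 replicates 1 and 3.

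The difference between systems was called in 11 of 16 tested migratory maturation genes, against 5.99% of all genes tested. Ccr7 stood at 24.4, 32.5 and 30.5 FPKM in L-cDC2, against 28.5, 25.9 and 32.1 FPKM in M-cDC2, a difference of 0.01 ± 0.15, and the systems differed by -1.26 ± 0.21 (limma adjusted p = 0.00599). Relb stood at 115, 124 and 119 FPKM in L-cDC2, against 119, 116 and 118 FPKM in M-cDC2, and the systems differed by -1.07 ± 0.17 (adjusted p = 0.00453). For Cacnb3 the systems differed by -1.93 ± 0.25 (adjusted p = 0.00138). In reporter mice the L-cDC2 and M-cDC2 levels of Ccr7 and Relb overlapped, and the CLP-cDC2 levels lay below all of them. Apol7c (13.3, 11.5 and 17.6 FPKM in L-cDC2, against 16.5, 11.9 and 13.3 FPKM in M-cDC2), Mefv (14.3, 9.81 and 9.699 FPKM in L-cDC2, against 15.3, 15.2 and 15.4 FPKM in M-cDC2) and Dnase1l3 (52.95, 46.5 and 49.5 FPKM in L-cDC2, against 60.4, 57.95 and 55.7 FPKM in M-cDC2) had smaller gaps in the reporter mice, and the systems differed by -2.98 ± 0.30, -2.99 ± 0.29 and -2.33 ± 0.27 (adjusted p = 0.00026, 0.000208 and 0.000561). Sirpa and Cd4 gave differences between systems of -1.74 ± 0.34 and -2.26 ± 0.37 (adjusted p = 0.0141 and 0.00546), and Lamp1 of -2.86 ± 0.48 (adjusted p = 0.00614). Each of these exceeded the difference after transfer in size, so the difference in the reporter mice lay above 0. Lamp1 stood at 29.97, 40.8 and 42.6 FPKM in L-cDC2, against 40.3, 30.6 and 13.4 FPKM in M-cDC2. Its difference there of 0.53 ± 0.34 gave no call (adjusted p = 0.72).

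Irf8, Gcsam and Rab7b ran in opposite directions in the systems, with a call in each. Rab7b, a GTPase of late endosomes, had 25.9, 19 and 17.7 FPKM in CLP-cDC2, against 10.2, 8.44 and 4.86 FPKM in CDP-cDC2 (difference 1.34 ± 0.24, limma adjusted p = 0.00347). In the reporter mice Rab7b stood at 6.1, 5.02 and 8.52 FPKM in L-cDC2, against 19.8, 19.8 and 20.6 FPKM in M-cDC2, a difference of -1.51 ± 0.24 (adjusted p = 0.00307), and the systems differed by 2.85 ± 0.33 (adjusted p = 0.000657). Irf8 stood at 28.9, 31.3 and 29.2 FPKM in L-cDC2, against 59.1, 59.7 and 56.1 FPKM in M-cDC2, a difference of -0.95 ± 0.21 (adjusted p = 0.0333), and the systems differed by 2.04 ± 0.29 (adjusted p = 0.00278). Gcsam stood at 4.98, 2.87 and 3.65 FPKM in L-cDC2, against 8.82, 10.1 and 6.85 FPKM in M-cDC2, a difference of -0.997 ± 0.22 (adjusted p = 0.0342), and the systems differed by 2.504 ± 0.31 (adjusted p = 0.000876). For Rab7b, Irf8 and Gcsam, M-cDC2 was thus the high group of the reporter mice and CLP-cDC2 the high group after transfer. Cd36 and Cd24a differed by -0.49 ± 0.14 and -0.73 ± 0.30 in reporter mice, without a call (adjusted p = 0.17 and 0.487), and the systems differed by 1.48 ± 0.20 and 2.34 ± 0.42 (adjusted p = 0.00205 and 0.00943). Phgdh stood at 44.8, 39.5 and 42.5 FPKM in L-cDC2, against 28.8, 27.3 and 34.9 FPKM in M-cDC2, a gap that was smaller than after transfer by 1.599 ± 0.31 (adjusted p = 0.013). Transfer, host and reporter line differ together between the systems and cannot be told apart.

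**Figure D5:**
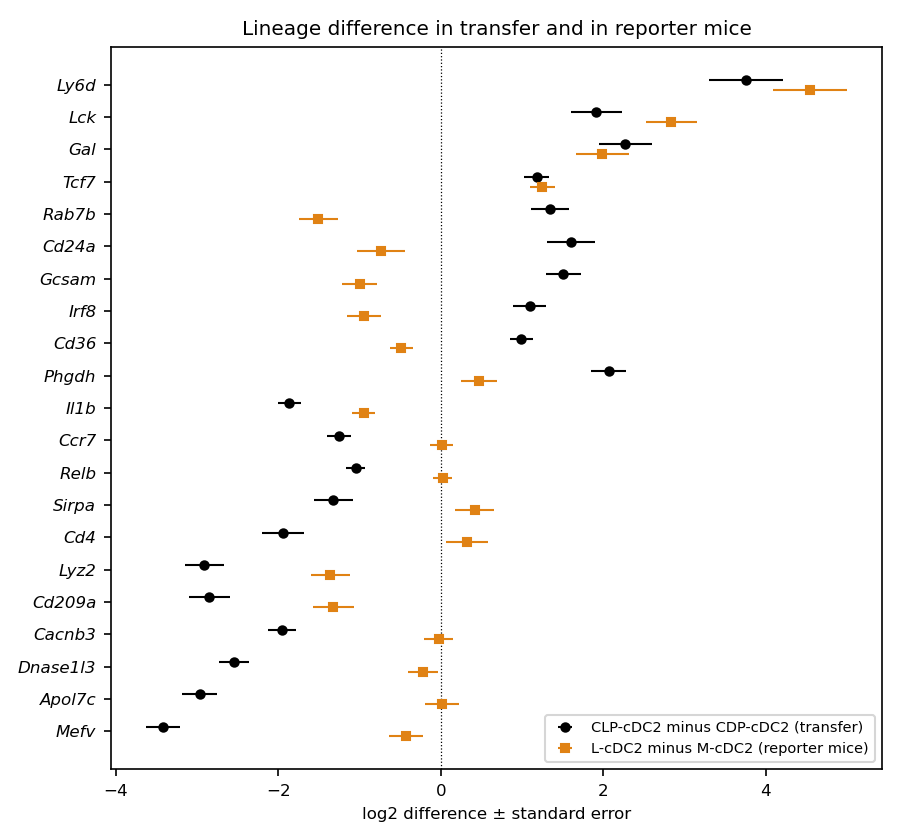
Log2 differences with standard errors for 21 genes, with CLP-cDC2 minus CDP-cDC2 as black circles and L-cDC2 minus M-cDC2 as orange squares. Ly6d, Lck, Gal and Tcf7 lie to the right of 0 in both contrasts, Rab7b, Cd24a, Gcsam, Irf8 and Cd36 lie to the right of 0 after transfer and to the left in the reporter mice, and Ccr7, Relb, Cacnb3 and Apol7c lie near 0 in the reporter mice.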

How the data were processed

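RNA was extracted with RNeasy micro columns and libraries were made with SMART-Seq HT and Nextera XT, per the labels' protocols. The authors deposited FPKM values per gene and library in one file. Per the submitters' processing notes, the tools were STAR 2.7.9a, featureCounts 2.0.1, cutadapt 3.7, Trimmomatic 0.39, Trim Galore 0.6.7 and DESeq2 1.20.0, and the builds GRCh38 and GRCm38. Their roles, order and the strand setting are not given in the sources used here.

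Each library's depth was recovered from its smallest FPKM steps, with a tolerance of 0.02 of a read for a value called whole. Precision so derived covers counting error only. No pair of libraries within a group shared a value above 0, so none was deposited in duplicate. Values were tested as log2(FPKM + 1) with limma 3.58.1 in R 4.3.3, two-sided, with 4 group means over all 12 libraries, a mean-variance trend and Benjamini-Hochberg adjustment over the 14538 genes with at least 1 FPKM in at least 3 libraries. Genes were called at an adjusted p under 0.05. The script was checked on simulated data.

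Genes named were the 15 largest called differences in each direction with no overlap and a higher group averaging 5 FPKM or more, up to 4 called members of each of 48 gene lists, 20 genes fixed by name, and the 5 largest differences between systems in each direction. Predicted genes, pseudogenes and antigen receptor segments were left out of the largest differences. Clec7a, annotated as a polymorphic pseudogene, was named as a list member only. From these, only genes that bear on the comparisons are described. Some genes of the lists are not reported here. Igkc and the other untested or uncalled list members that are named were chosen after their values were seen. Members, lists and tests were chosen with earlier results of these data known. Lists are described by counts and medians, and GC content is that of the longest GENCODE M21 transcript and promoters are from RefSeq. Gene coordinates of the deposited file are not printed, because they differ from GRCm38. The alternatives were other pseudocounts, filters and scalings, array weights, no trend, a replicate block, protein-coding genes, the 6 transfer libraries alone, removal of other-cell genes, each library left out and, added after the data were seen, removal of GC and length trends, sums of marker lists without the members described, and omission of CDP-cDC2 replicate 3 with M-cDC2 replicate 3.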

Additional observations from a re-analysis of the deposited data

Results flagged for a closer look

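The difference between CLP-cDC2 and CDP-cDC2 was not the same as that between L-cDC2 and M-cDC2 for 64 of the 99 genes described. This was by the test of the difference itself (limma adjusted p under 0.05), with 43 lower and 21 higher in the transfer contrast. Of all genes tested, 5.99% were called. Many of the 99 genes were chosen for their difference after transfer, and some for their difference between systems. The transfer difference is part of this test, so the high count partly follows from the choice of genes. The difference between systems is given above for 18 of the 64, chosen after their values were seen. For some of the 18 the values of L-cDC2 and M-cDC2 are not given. Of the 18, those with a lower value after transfer, as a log2 difference between the systems, were Mefv at -2.99, Apol7c at -2.98, Lamp1 at -2.86, Dnase1l3 at -2.33, Cd4 at -2.26, Cacnb3 at -1.93, Sirpa at -1.74, Lyz2 at -1.55, Cd209a at -1.53, Ccr7 at -1.26, Relb at -1.07 and Il1b at -0.92. Those with a higher value were Rab7b at 2.85, Gcsam at 2.50, Cd24a at 2.34, Irf8 at 2.04, Phgdh at 1.599 and Cd36 at 1.48. The other 46 included Jund at -3.23, Arf6 at -3.12, Lyz1 at -2.899 and Dusp2 at -2.76 (adjusted p = 0.0166, 0.0224, 0.0211 and 0.0194).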

How the results depend on the processing

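None of the 95 called genes described reversed under any alternative in which it was tested, and 83 kept their call in every such alternative. Some alternatives did not test all 95. The filter at 5 FPKM tested 82, removal of other-cell genes 81, and each fit of protein-coding genes 94. The uncalled Flt3 changed sign to -0.14 under quantile normalization and under array weights, and lay between -0.0734 and 0.150 with one library left out, below 0 without CLP-cDC2 replicate 2, CDP-cDC2 replicate 1 and CDP-cDC2 replicate 3. The uncalled Irf4 became 0.0521 under array weights and lay between -0.173 and 0.0925 with one library left out, above 0 without CDP-cDC2 replicate 3. With CDP-cDC2 replicate 3 and M-cDC2 replicate 3 both left out these values were -0.0313 for Flt3 and 0.0925 for Irf4, and the difference between systems was called for 460 genes. Without a filter on low values 576 genes were higher, 491 lower and 255 differed between systems, and with the 6 transfer libraries alone 368 were higher and 430 lower. Array weights called 2044 differences between systems. Leaving out one library gave 477 to 1073 higher, 501 to 907 lower and 190 to 1240 differences between systems. The cause of these shifts was not tested, apart from the smaller number of libraries in some fits. Replicate numbers were shared between the groups. The deviations of same-numbered CLP-cDC2 and CDP-cDC2 libraries correlated by -0.03, 0.28 and 0.085, and those of differently numbered libraries by -0.29 to 0.22. So few values cannot show whether same-numbered libraries were paired. The replicate block gave 718 higher, 646 lower and 477 differences between systems over 12 libraries, and 342 higher and 469 lower over the 6 transfer libraries. Over the 6 libraries it ended the calls of H2-Ab1, C1qa, Id2, Blk, Psat1, Atp5c1, Zeb2, Runx1 and Itgam, and over 12 those of Itgax, C1qa, Zeb2 and Itgam, with an adjusted p of 0.0583 for Psat1 and 0.0509 for Runx1. Depth sets the precision of genes near 0 FPKM, such as Nudt17 and Xcl1.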

Other observations

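Several other gene groups gave 0 to 7 calls each, and most of these counts fell when any of several libraries was left out. The shares over all genes tested were 7.02% higher and 6.12% lower. Ribosomal protein genes had 7 of 48 tested members higher and 0 lower in CLP-cDC2, with a median log2 difference of 0.30. The higher count was 1, 0 and 3 without CLP-cDC2 replicates 1, 2 and 3, 11 and 2 without CDP-cDC2 replicates 1 and 3, 3 and 4 without L-cDC2 replicates 1 and 3, and 3 without M-cDC2 replicate 1 or 2. Ribosome biogenesis genes had 7 of 21 higher (Nop56, Nop58, Ncl, Npm1, Dkc1, Nhp2 and Wdr12) and 0 lower, with a median of 0.29. This count was 3 without CLP-cDC2 replicate 1, and 2 without CLP-cDC2 replicate 2 or CDP-cDC2 replicate 3. Cholesterol synthesis genes had 2 of 22 higher (Fdps and Msmo1) and 0 lower, and 1 was higher without CLP-cDC2 replicate 1 or 2 or without CDP-cDC2 replicate 3.

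In the unfolded protein response 4 of 20 tested genes were higher (the disulfide isomerases Pdia3, Pdia5 and Pdia6, and the secreted factor Manf) and 1 (Edem1) was lower. Without CLP-cDC2 replicate 2, 0 were higher, without CLP-cDC2 replicate 1 or CDP-cDC2 replicate 3, 1 was, and in each case Edem1 was not called. Of the interferon-inducible Ifi200 family, whose members are close copies of each other, 4 of 10 tested genes were lower (Ifi204, Ifi206, Ifi207 and Ifi213) and 1 (Ifi205) was higher. The lower count was 2 without CLP-cDC2 replicate 1 and 1 without CLP-cDC2 replicate 2, and the higher count was 0 without CLP-cDC2 replicate 1, 3 without CDP-cDC2 replicate 1 and 2 without M-cDC2 replicate 3. Plasma cell genes had 0 of 5 tested members called. In the erythroid and platelet list 1 of 5 (Car2) was higher, and it was not called without CLP-cDC2 replicate 3 or CDP-cDC2 replicate 2.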
